A study of Triticum aestivum with 16 samples.

Results

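Sucrose synthase and glucose-6-phosphate dehydrogenase (G6PDH) were each represented on the wheat array by 3 control probe sets, which were chosen because their identifiers contain Ta_Sucsyn or Ta_G-6-PDH. The array names the genes Sucsyn and G-6-PDH. The 6 probe sets, of 61289 on the array's list, are AFFX-Ta_Sucsyn_3_at, AFFX-Ta_Sucsyn_M_at and AFFX-Ta_Sucsyn_5_at, and AFFX-Ta_G-6-PDH_3_s_at, AFFX-Ta_G-6-PDH_M_s_at and AFFX-Ta_G-6-PDH_5_s_at. They are called here the 3′, middle and 5′ probe sets, after the part of the transcript that the identifier names. Identifiers ending in _s_at mark probe sets whose probes can match more than 1 transcript, so the G6PDH values may add up several gene copies. The table that pairs probe sets with genes names none of the 6, and the enzyme names were read from the identifiers.

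Sucrose synthase splits sucrose with UDP into UDP-glucose and fructose, in a reaction that can run both ways, and it feeds sugar into cell walls, starch and respiration in tissues that import sucrose. G6PDH makes the first committed step of the oxidative pentose phosphate pathway, which supplies NADPH and pentoses for biosynthesis. Wheat stems around flowering hold soluble sugars, largely fructans made from sucrose, which the plant later moves to the grain.

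The arrays held RNA from stem tops (the upper pair of internodes, peduncle included, with the sheath of the leaf left on) of 8 recombinant inbred lines bred from Seri M82 and Babax. All lines were grown rain-fed in 1 field trial and sampled at anthesis, on wet soil after heavy rain, and each array pooled main-tiller stems of 1 plot. The lines SB165, SB169, SB10 and SB62 and the lines SB109, SB69, SB57 and SB3 each had 2 arrays from separate field plots (replicates 1 and 2), and there was no untreated or parental group. The study's title concerns genotypic differences in water-soluble carbohydrate metabolism. No label ranks the lines by sugar content, so the comparison of SB165, SB169, SB10 and SB62 with SB109, SB69, SB57 and SB3 below rests on sets given with the choice of genes, not on labels. Array medians lay between 23.56 and 25.01 intensity units. PSBO, a photosystem II gene that marks green tissue such as the leaf sheath, was bright and even, with line means of 13.30 to 13.40 log2 units.

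Levels of sucrose synthase differed among the 8 lines by up to 1.57-fold in its middle probe set, and this was the only 1 of the 6 probe sets that passed the test of a difference among lines (limma moderated F-test, Benjamini-Hochberg adjusted p = 0.0303, threshold 0.05). Of all 61140 probe sets tested, 3.99% passed, and of the brightest 10% of them 8.56% passed. At an unadjusted p under 0.05, 4 of the 6 were below the threshold, against 15.2% of all probe sets tested. The 6 measure 2 enzymes on the same arrays and are not independent, so this count is no test of enrichment. The line means of the 6 spanned 0.50 to 0.89 log2 units, against a median span of 0.37 over all probe sets tested. None of the 19 other control probe sets named for wheat genes passed. The call of the middle sucrose synthase probe set was lost with quantile normalization (adjusted p = 0.0693) and in 11 of 16 fits that each left out 1 array (0.00818 to 0.103 over the 16). It held without an array of SB165, an array of SB3 or SB57 replicate 2, and was lost without any other array.

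The middle sucrose synthase probe set read, in log2 intensity for replicates 1 and 2, 9.94 and 9.59 in SB165, 9.53 and 9.71 in SB169, 10.38 and 10.17 in SB10, 9.77 and 9.65 in SB62, 10.18 and 10.12 in SB109, 10.07 and 10.20 in SB69, 9.72 and 9.87 in SB57, and 10.27 and 10.06 in SB3. SB10, SB3, SB109 and SB69 were high and SB57, SB165, SB62 and SB169 were low, and no array of the high lines overlapped an array of the low ones. The line means lay at 10.13 to 10.27 in the 4 high lines and at 9.62 to 9.80 in the 4 low lines, with no line in the 0.34 log2 units between. The SD between the 2 plots of a line, pooled over lines, was 0.14. Of the 28 pairs of lines, 2 passed the limma test, adjusted within each pair and not over the 28. Over all probe sets and pairs, 1.10% passed. SB169 was lower than SB10, with a log2 difference of -0.65 (SE 0.14, adjusted p = 0.0191), and SB10 was higher than SB62 by 0.56 (SE 0.14, adjusted p = 0.0373). These 2 pairs were among those with many calls, with 1361 and 1837 of the 61140 probe sets passing. No neighbours in the order of line means passed.

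The 3′ sucrose synthase probe set split the lines in the same way. Its means were 11.14 to 11.29 in SB109, SB69, SB3 and SB10, and 10.79 to 10.90 in SB169, SB57, SB62 and SB165, with a gap of 0.24 between. It did not pass the F-test (adjusted p = 0.130), nor did any pair of lines (lowest adjusted p = 0.0762). The 5′ probe set was dimmer, with a mean of 6.67, and its plots spread more, with a pooled SD of 0.32. SB165 read 6.80 in replicate 1 and 5.94 in replicate 2, and SB3 read 7.26 and 6.63. SB10 was highest with a mean of 7.07 and SB165 lowest with 6.37, and no test among lines passed (F-test adjusted p = 0.536).

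**Figure D1:**
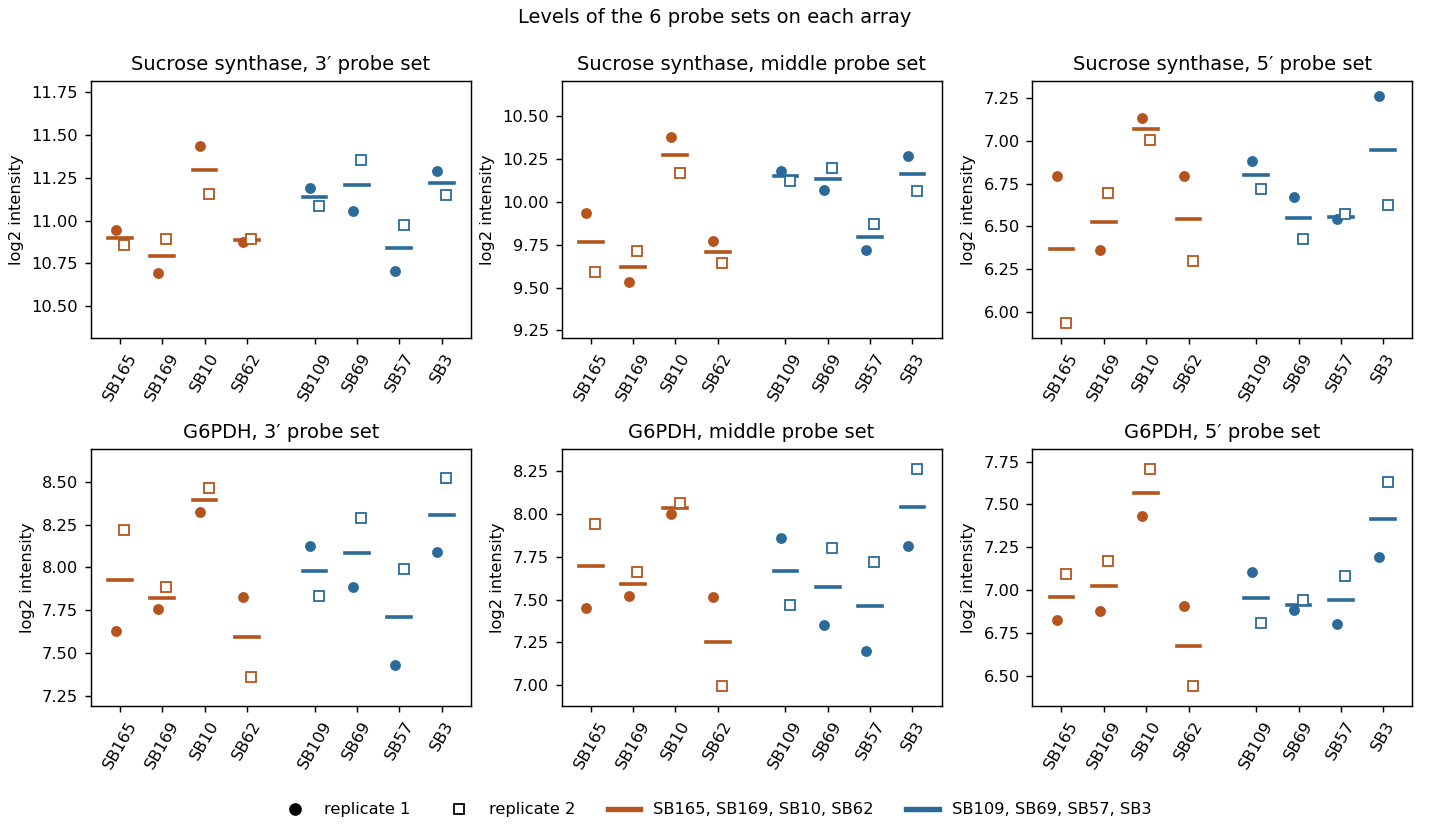
Log2 intensity of the 6 probe sets by line. Filled circles are replicate 1, open squares replicate 2 and bars line means, and each panel spans 1.5 log2 units. SB10 and SB3 lie at the top in most panels, and the plots of 1 line lie closest together in the 3′ and middle sucrose synthase panels.

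G6PDH was highest in SB10 and SB3 and lowest in SB62 in all 3 of its probe sets, with spans of 1.72-fold to 1.86-fold between the highest and the lowest line. None of the 3 passed the F-test. The plots of a line lay further apart than for the 3′ and middle sucrose synthase probe sets, with pooled SDs of 0.23 to 0.29 against 0.14. The 5′ probe set came nearest (adjusted p = 0.131), followed by the 3′ (0.327) and the middle (0.372).

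The 5′ G6PDH probe set read, for replicates 1 and 2, 6.83 and 7.10 in SB165, 6.88 and 7.17 in SB169, 7.43 and 7.71 in SB10, 6.91 and 6.44 in SB62, 7.10 and 6.81 in SB109, 6.88 and 6.94 in SB69, 6.80 and 7.08 in SB57, and 7.19 and 7.63 in SB3. Both arrays of SB10 and of SB3 lay above every array of the other 6 lines. Their means were 7.57 and 7.41, while the other 6 lines lay between 6.67 and 7.02. SB10 was higher than SB62 by 0.89 log2 units, or 1.86-fold (SE 0.20, adjusted p = 0.0226 by limma), the only 1 of the 28 pairs that passed. These are the highest and the lowest line, and the pair had the most calls of the 28, with 1837 of 61140 probe sets passing. The p-value was adjusted over probe sets within the pair, not over the 28 pairs.

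The middle G6PDH probe set read 7.45 and 7.94 in SB165, 7.52 and 7.66 in SB169, 8.00 and 8.07 in SB10, 7.52 and 6.99 in SB62, 7.86 and 7.47 in SB109, 7.35 and 7.80 in SB69, 7.20 and 7.72 in SB57, and 7.81 and 8.26 in SB3. SB3 and SB10 had almost equal means (8.04 and 8.03), and the arrays of SB3 overlapped those of SB165 and SB109. In the 3′ probe set the means were 8.39 in SB10 and 8.30 in SB3, against 7.59 in SB62. No pair of lines passed in either probe set (lowest adjusted p 0.0983 and 0.0942). Set against the mean of the other 7 lines, no line passed in any of the 6 probe sets (0 of 48 contrasts, lowest adjusted p = 0.0688 by limma), against 1.13% over all probe sets and contrasts.

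The first 4 lines, SB165, SB169, SB10 and SB62, did not differ from the other 4 beyond the spread among lines in any of the 6 probe sets. In a limma fit on line means, 0.00164% of the 61140 probe sets (1 in number) passed at an adjusted p under 0.05 and 1.85% had an unadjusted p under 0.05, whereas 0 of the 6 were under either threshold. Of the 6, the middle sucrose synthase probe set had the widest difference, with a mean of 9.84 ± 0.29 in SB165, SB169, SB10 and SB62 and 10.06 ± 0.18 in SB109, SB69, SB57 and SB3 (SD, n = 4 lines each). The difference of -0.22 had a 95% interval of -0.55 to 0.11 (two-sided exact permutation p = 0.314, where 4 lines against 4 cannot go below 0.0286). By line means, SB10 lay above all 4 lines of the second set and the other 3 lines of the first set lay below all of them, in the middle as in the 5′ probe set. Some of these margins were far below the plot spread and not resolved. In the middle probe set SB165 was at 9.763 and SB57 at 9.796 (pooled plot SD 0.14). In the 5′ probe set SB62 was at 6.546 and SB69 at 6.549 (pooled plot SD 0.32). Leaving out 1 line at a time gave differences of -0.36 to -0.15 in the middle probe set, widest without SB10 (unadjusted p = 0.0070, adjusted p = 1.00 by limma) and narrowest without SB169. In the 3′ probe set they were -0.24 to -0.075, at -0.24 without SB10, -0.22 without SB57 and -0.075 without SB169.

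For the 3′ and 5′ sucrose synthase probe sets the differences were -0.13 (interval -0.41 to 0.14) and -0.09 (-0.43 to 0.26). The 3 differences of G6PDH were nearer 0, at -0.09 for the 3′ (interval -0.48 to 0.30), -0.04 for the middle (-0.42 to 0.34) and 0.00 for the 5′ probe set (-0.41 to 0.41). Their intervals leave room for a change of about 1.3-fold in either direction in the 5′ probe set (0.751 to 1.33). Means and medians of the 2 sets ran opposite in the middle G6PDH probe set, with medians of 7.64 in SB165, SB169, SB10 and SB62 and 7.62 in SB109, SB69, SB57 and SB3.

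**Figure D2:**
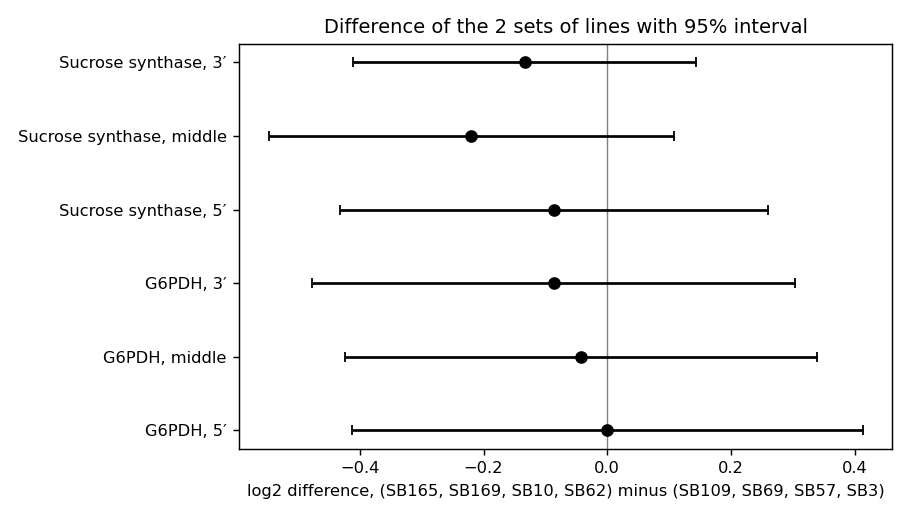
Difference in mean log2 intensity of each probe set, SB165, SB169, SB10 and SB62 minus SB109, SB69, SB57 and SB3 (n = 4 lines each), with its 95% interval from limma on line means. All 6 intervals hold 0, and the middle sucrose synthase difference of -0.22 lies farthest from it.

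The 3 probe sets of a transcript should follow each other if they measure the same RNA. Levels of different probe sets are not comparable in size, so only the way their differences changed over arrays was tested. For sucrose synthase, 3′ minus middle was 1.08 log2 units on average and its line means spanned 0.19, less than the spread of the levels themselves. The exact permutation test over all pairings of the 16 arrays gave an adjusted p = 0.703 for a difference among lines (Benjamini-Hochberg over 6 such tests). The 3′ minus 5′ difference moved more from array to array, between 4.03 and 4.93, and differed between the plots of 1 line: it was 4.15 and 4.92 in SB165, 4.39 and 4.93 in SB69, and 4.03 and 4.52 in SB3. The difference among lines did not pass (exact permutation, adjusted p = 0.841). On the same arrays the 3′ minus 5′ difference of ubiquitin lay between -1.42 and -0.96, with -1.42 and -1.16 in SB165 and -0.96 and -1.39 in SB3. In SB69 the 3′ ubiquitin probe set read 11.78 and 11.83 and the 5′ probe set 12.89 and 12.92. The difference of actin was -1.79 and -1.86 in SB165 and -1.89 and -2.03 in SB3. That of gapdh was -2.43 and -2.57 in SB165 and -2.51 and -2.55 in SB3. The 3′ probe sets of actin and gapdh were dim, with means of 3.65 and 3.37, above only 33.2% and 27.2% of wheat probe sets. Their differences can therefore show little of a shift between 3′ and 5′ signal. Whether RNA quality had a part in the 3′ minus 5′ shifts of sucrose synthase between the plots of SB165, SB69 and SB3 was not tested.

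G6PDH was the 1 transcript with a difference between parts that passed. Its 3′ minus middle difference was 0.53 and 0.49 in SB69, against 0.18 and 0.28 in SB165, with the other 12 arrays between 0.23 and 0.40. Both SB69 arrays lay above all others, and the line means spanned 0.28 log2 units (pooled plot SD 0.04, exact permutation p = 0.0074, adjusted p = 0.0446). The call was lost in 13 of 16 fits that each left out 1 array, with an adjusted p of 0.0236 to 0.135, and held only without SB165 replicate 2 or either array of SB109. The 3′ minus 5′ and middle minus 5′ differences of G6PDH did not pass (adjusted p = 0.703 each).

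**Figure D3:**
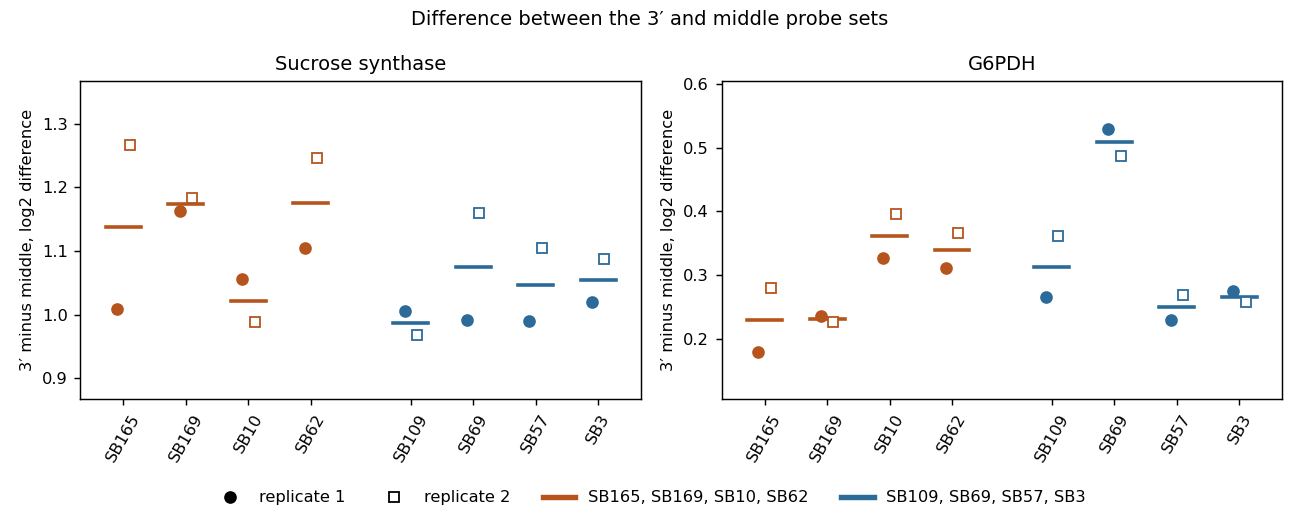
Difference between the 3′ and middle probe sets by line, in log2 units, for sucrose synthase (left) and G6PDH (right). Circles are replicate 1, squares replicate 2, bars line means, and both panels span 0.5 log2 units. For G6PDH both SB69 arrays, at 0.53 and 0.49, lie above the other 14.

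By line means, the same 4 lines, SB10, SB3, SB69 and SB109, had the highest 3′ levels of both enzymes, and in the same order. Some steps in this order were far below the plot spread and not resolved. In 3′ G6PDH the means were 7.98 in SB109 and 7.92 in SB165 (pooled plot SD 0.29). In 3′ sucrose synthase they were 11.22 in SB3 and 11.21 in SB69 (pooled plot SD 0.14). The shared order did not hold for the other G6PDH probe sets. In middle G6PDH, SB165, at 7.69, was above SB109 and SB69, and SB69, at 7.58, was below SB169 at 7.59. In 5′ G6PDH, SB169 at 7.02 and SB165 at 6.96 were above SB109 and SB69. For the other 4 lines the order of the 3′ levels differed: SB165, SB62, SB57, SB169 for sucrose synthase and SB165, SB169, SB57, SB62 for G6PDH. Because the lines fell into separate groups in the 3′ and middle sucrose synthase probe sets and in the 5′ G6PDH probe set, with gaps wider than the spread on either side, no correlation over line means is given for pairs that hold one of these. Groups of 4 lines are too small to test the relation within them.

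Over the 3 pairs that remain, the 3′ and middle probe sets of G6PDH followed each other over the 8 line means (Pearson r = 0.941, exact permutation p = 0.0012, adjusted p = 0.0144 over 30 relations). Spearman's rho was 0.810 (exact p = 0.0218, adjusted p = 0.0933), and r was 0.862 without SB10 and SB62, the lines farthest from the median. Between the enzymes, the 5′ sucrose synthase probe set had r = 0.768 with the 3′ (exact p = 0.0299, adjusted p = 0.0598, rho 0.667, exact p = 0.0831) and r = 0.744 with the middle G6PDH probe set (exact p = 0.0344, adjusted p = 0.0645, rho 0.452, exact p = 0.268). Neither passed over all arrays, and each passed in 2 of 16 fits that left out 1 array: both without SB62 replicate 1, that with 3′ G6PDH also without SB69 replicate 2 and that with middle G6PDH also without SB165 replicate 2. Both relations rested on SB10 and SB3, without which r was 0.151 and 0.0212. Among the replicate 1 arrays alone r was 0.731 and 0.749, and among the replicate 2 arrays alone 0.235 and 0.214.

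Between the 2 plots of a line, 3 of the 4 relations given within an enzyme passed, whereas none of the 6 given between the enzymes did. For replicate 2 minus replicate 1 over the 8 lines, sucrose synthase 3′ and middle had r = 0.859 (exact permutation p = 0.0113, adjusted p = 0.0374, rho 0.714, exact p = 0.0576), and middle and 5′ had r = 0.820 (exact permutation p = 0.0129, adjusted p = 0.0374, rho 0.738, exact p = 0.0458). G6PDH 3′ and 5′ had r = 0.852 (exact permutation p = 0.0145, adjusted p = 0.0374, rho 0.50, exact p = 0.216), which fell to -0.0171 without SB62 and SB109, where replicate 2 was the lower plot. Leaving out the 2 farthest lines gave r = 0.754 and 0.582 for the sucrose synthase pairs. Its 3′ and 5′ probe sets had r = 0.461 and did not pass (exact permutation p = 0.250, adjusted p = 0.358, rho 0.262, exact p = 0.536). The 6 relations between the enzymes that were given lay between -0.155 and 0.228, with a lowest adjusted p = 0.740 (exact permutation). The difference between relations within and between the enzymes was not tested, and all these values depend on which plot of a line was numbered 2.

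**Figure D4:**
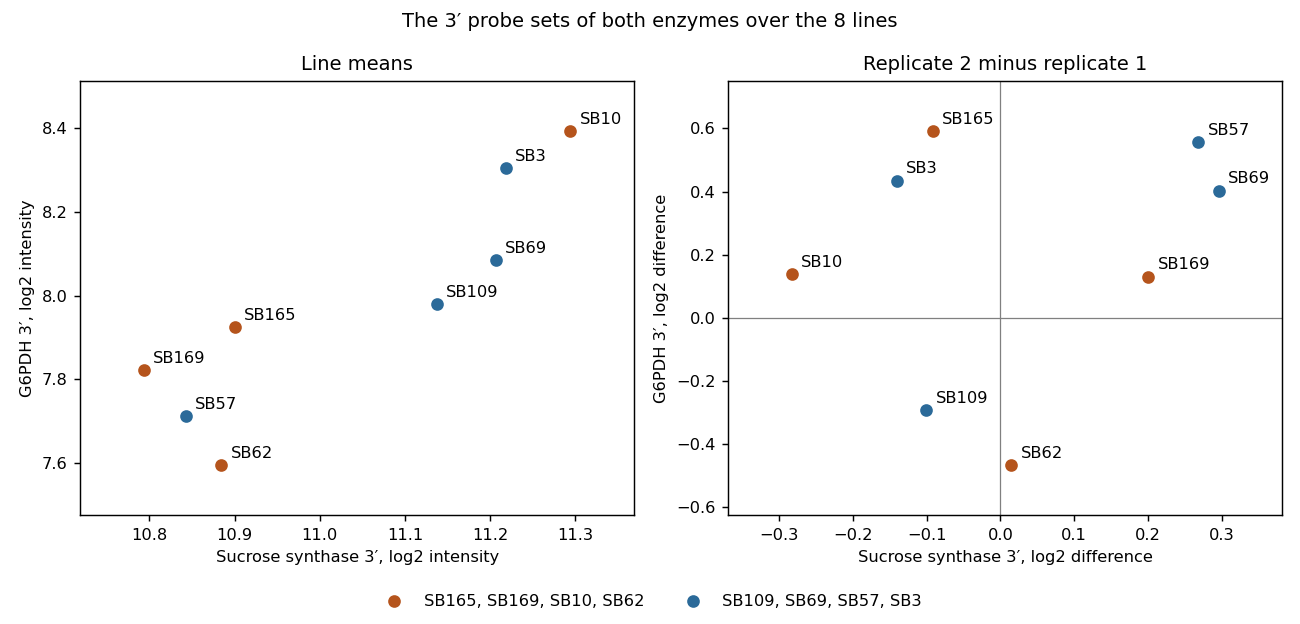
The 3′ probe set of G6PDH against that of sucrose synthase over the 8 lines, as line means in log2 intensity (left) and as replicate 2 minus replicate 1 in log2 units (right). On the left SB10, SB3, SB69 and SB109 have the highest means of both. They lie apart from the other 4 lines in sucrose synthase, while in G6PDH SB109 lies close to SB165. On the right the lines are scattered.

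The plots of a line also differed in histone H2A, a marker of dividing cells. The summed intensity of 9 H2A probe sets was 167 and 693 in SB165, 401 and 1285 in SB10 and 180 and 2488 in SB3 for replicates 1 and 2, or 4.15-fold, 3.20-fold and 13.8-fold higher in replicate 2. SB109 was even, with 515 and 505, and SB169, SB62, SB69 and SB57 stayed between 139 and 193. No H2A probe set passed the F-test among lines. In SB165, SB10 and SB3, replicate 2 was also the plot with higher G6PDH and lower sucrose synthase in all 3 probe sets of each. In SB169, SB69 and SB57, where H2A hardly differed between plots, G6PDH was also higher in replicate 2. Sucrose synthase was also lower in replicate 2 in all 3 probe sets of SB109 and in the middle and 5′ probe sets of SB62, where H2A was no higher in replicate 2. Of 12 correlations computed between the log2 H2A sum and the members, 8 are given, again leaving out probe sets whose lines form separate groups, and 1 of the 8 passed after adjustment over the 12. The H2A line means themselves left a gap of 0.94 log2 units, between 4 lines at 7.20 to 7.47 and 4 at 8.41 to 9.49. They were kept only because the spread of the upper lines, 1.08, was wider than the gap, so these correlations may largely reflect 2 groups of lines. Over the 8 line means, H2A and middle G6PDH had r = 0.878 (exact permutation p = 0.00119, adjusted p = 0.0143), with rho 0.786 (exact p = 0.0279, adjusted p = 0.0838). Without SB10 and SB3, the 2 lines farthest from the median of H2A, r was 0.666 over the remaining 6 lines (exact p = 0.158). H2A had r = 0.83 with 3′ G6PDH (exact p = 0.0138, adjusted p = 0.0552, rho 0.833, exact p = 0.0154) and r = 0.784 with 5′ sucrose synthase (exact p = 0.0246, adjusted p = 0.0722, rho 0.690, exact p = 0.0694), and neither passed. Without the same 2 lines these were 0.535 and 0.378. Between the 2 plots of a line, H2A had r of -0.672 to -0.595 with the 3 sucrose synthase probe sets and of 0.465 and 0.617 with 3′ and 5′ G6PDH, and none passed (exact permutation, adjusted p 0.102 to 0.249). The rho values were -0.571 to -0.452, and 0.571 and 0.524 (exact permutation, adjusted p 0.256 to 0.292). Without SB165 and SB3, the 2 lines farthest from the median of the H2A plot difference, r changed. It was -0.648, -0.543 and 0.0476 with 3′, middle and 5′ sucrose synthase, and 0.176 and 0.466 with 3′ and 5′ G6PDH. The part of dividing cells in these values was not tested, and in such bulk samples a different share of a cell type and a different amount of RNA per cell cannot be told apart.

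**Figure D5:**
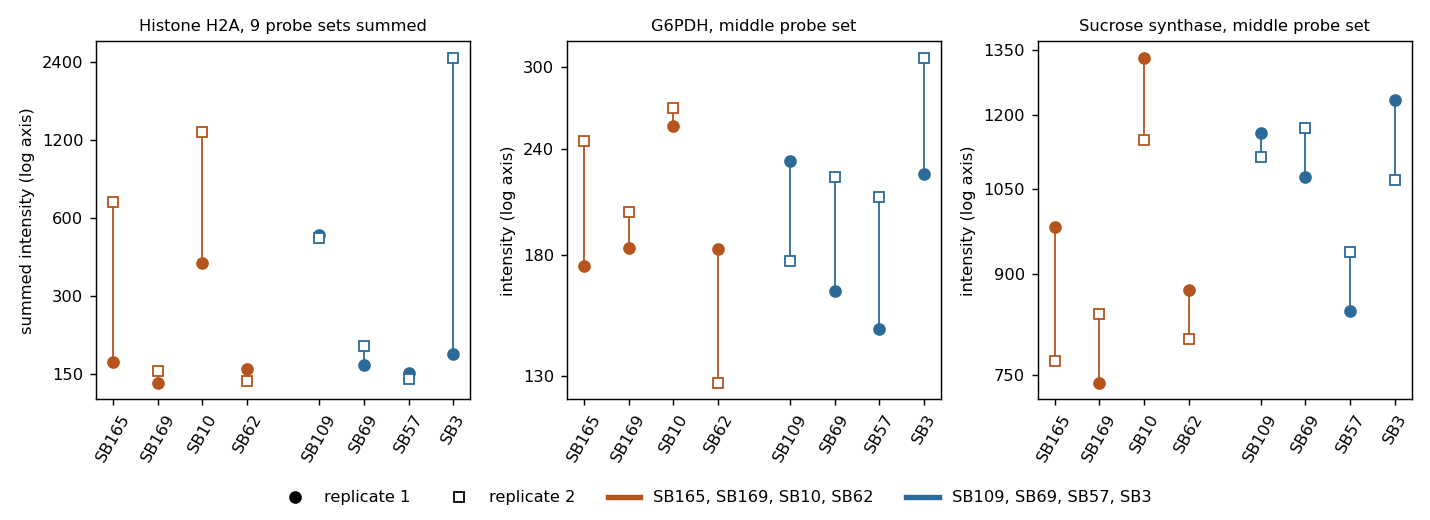
Summed intensity of 9 histone H2A probe sets and intensity of the middle G6PDH and sucrose synthase probe sets by line, on log axes. Circles are replicate 1 and squares replicate 2, joined by a line. H2A is far higher in replicate 2 of SB165, SB10 and SB3, where G6PDH is higher and sucrose synthase lower. G6PDH is also higher in replicate 2 of SB169, SB69 and SB57, and sucrose synthase lower in SB109 and SB62, with little change in H2A.

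Of 24 names on the list of related pathway genes, which covered sucrose and fructan metabolism, the pentose phosphate pathway and glycolysis, 2 were found in the annotation, and neither passed the F-test or the comparison of 4 lines with 4. The fructan 1-exohydrolase 1-FEH, which breaks down fructans, had line means from 10.68 in SB169 to 11.26 in SB62 (F-test adjusted p = 0.0670 by limma). Phosphofructokinase, an entry step of glycolysis, was dim, with a mean of 2.86. None of 12 probe sets of other carbohydrate genes, among them fructose-bisphosphatase, phosphoribulokinase and beta-amylase, passed either test. With 59842 wheat probe sets lacking a gene name, most genes of these pathways were not analysed here.

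Many more wheat probe sets varied with G6PDH than with sucrose synthase. Likeness was taken as the value nearer 0 of the 2 Pearson correlations over the 8 lines, computed within replicate 1 and within replicate 2 against the mean of an enzyme's 3 probe sets, and is a description with no test. It was computed for 9640 wheat probe sets at or above the array's median brightness whose line means spanned at least 0.5 log2 units. Likeness was over 0.7 for 1603 of them with G6PDH (16.6%) and 77 with sucrose synthase (0.799%), and below -0.7 for 201 and 9. The lists above 0.7 shared 13 probe sets, 0.811% of the G6PDH list and 16.9% of the sucrose synthase list. These shares were near those over all candidates, 0.799% and 16.6%, so the overlap tells nothing particular about the 2 enzymes. The lists above 0.8, with 713 probe sets (7.40% of the candidates) for G6PDH and 23 for sucrose synthase, shared 0. With only 23 probe sets and a share of 7.40%, a count of 0 says little. Both sides of each correlation come from the same 16 arrays.

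The probe set most like sucrose synthase was Ta.6352.3.A1_a_at (likeness 0.904), with line means from 6.68 in SB109 to 5.69 in SB165. The most opposite was TaAffx.8202.1.S1_at (likeness -0.837). Its arrays read 3.29 to 4.30 in SB10, SB109, SB69 and SB3 and 6.05 to 6.73 in SB165, SB169, SB62 and SB57, a span of 9.22-fold between the line means. This is the same division of the lines as in the 3′ and middle sucrose synthase probe sets, turned round. As the probe set was picked for its opposite pattern, it adds no support for the division. The 2 annotated probe sets on the sucrose synthase list included the lipid transfer protein gene LTP3 (likeness 0.832), whose line means ran from 9.83 in SB10 to 5.56 in SB165.

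The probe set most like G6PDH was Ta.24675.1.S1_a_at (likeness 0.965), with 7.90 in SB10, 7.78 in SB3 and 6.56 in SB62. The most opposite was Ta.26052.1.A1_at (likeness -0.926), lowest in SB10 at 6.37 and highest in SB62 at 7.20. The annotated members of the G6PDH lists were 122 in number, with 6 of them opposite. Of all 9640 candidates, 16.6% were above 0.7 and 2.09% below -0.7. How many candidates were annotated was not counted, so the 122 have no share to be set against these. The annotated members included SAHH, which recycles S-adenosylhomocysteine (likeness 0.837 and 0.783 in its 2 probe sets). Of the H2A histone probe sets described above, the lists held an H2A-3 probe set (likeness 0.815) and H2A-9 probe sets (0.713 and 0.703). The other H2A probe sets were on neither list, but some were not among the candidates. The H2A-2 probe set was too dim, with a mean of 2.98, and the other H2A-3 probe set spanned only 0.26 log2 units.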

How the data were processed

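RNA of 16 wheat stem samples was hybridised to Affymetrix wheat arrays, 1 array per sample. The deposited values are normalized intensity values, 1 per probe set. The submitters' processing notes name GCOS and RMA, with no version or order. RMA gives log2 values, and the linear scale of the deposited intensity values was read from the values. RMA evens out overall signal between arrays and compresses differences of dim probe sets.

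Log2 was taken after a floor of 1, and nothing more was normalized. The fit held 61115 wheat and 25 named control probe sets, and the remaining controls and 64 reporters were not used. Line means were fitted in limma 3.58.1 under R 4.3.3 (1 mean per line, eBayes with trend, 8 residual and 6.76 prior degrees of freedom), with Benjamini-Hochberg adjustment over all probe sets and a threshold of 0.05. The number of arrays, 2 per line, limits the precision. Replicates are separate plots per the labels. For pairs of lines and single lines against the rest, adjustment was within each contrast, not over contrasts. Sets of 4 lines were compared on line means. Permutation tests were exact and two-sided, in Python 3.11.15 with numpy 2.4.6. Of 30 correlations computed, 13 are given. The criterion for separate groups of lines was chosen after the values were seen, and was applied to H2A too. The fit was tested on simulated data.

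The members, gene lists and tests were chosen with earlier results of these data known. The 12 probe sets of other carbohydrate genes were picked by name after the annotation was seen. All 6 members are named. Other probe sets are named where they were the most like or most opposite, or annotated. Alternatives were another normalization or centring, a pseudocount of 16, filters, no trend, array weights, the replicate block, rank correlation and left-out arrays or lines. Gene names come from the platform annotation (1273 probe sets, each with 1 symbol; 1272 matched to RefSeq genes of IWGSC CS RefSeq v2.1). Sequences were not used here.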

Additional observations from a re-analysis of the deposited data

Results flagged for a closer look

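Within the 2 sets of 4 lines, 12 groups of line means were looked at for a single line far from the others, and 2 had one; chance alone gives about 1 in 20 groups. In the middle sucrose synthase probe set SB57 stood at 9.80 log2 units, while SB69, SB109 and SB3 lay at 10.13, 10.15 and 10.16. In the 5′ G6PDH probe set SB3 stood at 7.41, while SB69, SB57 and SB109 lay at 6.91, 6.94 and 6.96. Both arrays of each of these lines lay on the same side.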

How the results depend on the processing

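The number of the 6 probe sets that passed the F-test, 1 in the fit reported, was 0 without the trend, with quantile normalization and at an adjusted p threshold of 0.01. Leaving out 1 array at a time gave 0 to 1, since sucrose synthase's middle probe set failed in 11 of 16 such fits (adjusted p 0.00818 to 0.103). With SB165 and SB3 on their first array each, chosen after seeing the data, its adjusted p was 0.00503.

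In the comparison of SB165, SB169, SB10 and SB62 with SB109, SB69, SB57 and SB3, 0 of the 6 passed under every alternative run. With the error taken from the plots of a line, the middle sucrose synthase difference had an unadjusted p = 0.0059 and an adjusted p = 0.431 (limma). Directions turned in fits that left out an array or a line: the G6PDH differences ranged from -0.240 to 0.0266 (3′), -0.172 to 0.0869 (middle) and -0.170 to 0.128 (5′), and the 5′ sucrose synthase difference from -0.233 to 0.0220. Centring on array medians gave -0.0015 for G6PDH 5′.

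The relation of the 3′ and middle G6PDH line means lost its call by rank (rho 0.810) and without the 2 farthest lines (r = 0.862). Between plots, the 3 relations that passed lost their calls by rank (rho 0.714, 0.738 and 0.50) and without the 2 farthest lines (r = 0.754, 0.582 and -0.0171), and quantile normalization ended the middle to 5′ call of sucrose synthase (r = 0.805) and the 3′ to 5′ call of G6PDH (r = 0.813). The relation of 5′ sucrose synthase with 3′ G6PDH passed with centring (r = 0.782) and without SB62 replicate 1 or SB69 replicate 2, and that with middle G6PDH passed without SB62 replicate 1 or SB165 replicate 2 (lowest adjusted p = 0.0251 for each, exact permutation). With single arrays left out they ran from 0.258 to 0.844 and from 0.225 to 0.827, lowest without SB165 replicate 1. Between plots, the median of the 6 relations between the enzymes was -0.289 with quantile normalization and 0.159 with centring. The 3′ minus middle difference of G6PDH had an adjusted p = 0.0622 with quantile normalization and 0.0236 to 0.135 with single arrays left out (exact permutation). The causes were not tested.

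It was not settled whether field replicate numbers pair the plots. Of 28 pairs of lines, 16 deviated together with a correlation over 0.1 (median 0.154, range -0.373 to 0.635). With the replicate block the middle sucrose synthase adjusted p was 0.0247 and no member's call in the F-test or in the comparison of 4 lines with 4 changed; calls between single lines were not refitted with it. If the numbers only label plots, the sign of replicate 2 minus replicate 1 is arbitrary in each line. The correlations between plots and the likeness values depend on this numbering. The 4 probe sets named as most like or opposite were not always first by r over line means or over arrays. Dim probe sets and 2 arrays per line limit what could be detected.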
